A study of Mus musculus with 33 samples.

Results

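Tumour-associated macrophages (TAM) from irradiated mouse pancreatic tumours that had received interleukin 12 (IL-12) were compared with TAM from unirradiated tumours that had received the same IL-12, which isolates the effect of radiation on an IL-12 background. The comparison rested on 5 of the 33 RNA-seq libraries of the series, 2 of SBRT+IL12 macrophages and 3 of IL12 macrophages, and on 13848 of 53735 genes in the deposited tables, those with a mean normalised level of at least 50. Libraries were chosen by their labelled group and genes by their level over all TAM libraries, so that the choice did not use the difference directly. A gene near the minimum can still pass it only through the group where it is high.

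All mice were C57BL/6 and carried KCKO cells, a mouse pancreatic cancer line, injected into the tail of the pancreas. SBRT+IL12 mice had stereotactic body radiotherapy (SBRT, focused radiation aimed with implanted titanium markers) in 4 fractions of 6 Gy on days 6 to 9 and, on day 10, an intratumoral injection of 2 mg of microspheres holding 0.5 ug of IL-12. IL12 mice had the microspheres without radiation. SBRT mice (2 TAM libraries) had the radiation without IL-12, and unIrr mice (2 TAM libraries) had neither; the labels mention empty microspheres without saying which groups received them. The day of harvest, the age of the mice and whether a library pools mice are not stated in the labels, so the spread between libraries behind the p-values may be technical. That spread was largely shared between genes by the authors' fit. TAM were sorted as CD45+CD11b+F4/80+ cells with moderate Ly6C and without Ly6G.

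The deposited values are 1 mean level per gene and 1 fold change per treated group against unIrr; values per library were not analysed here, so the overlap of single libraries cannot be shown. The level of each group was therefore reconstructed from the gene's mean level and the 3 deposited fold changes, in normalised counts, and is called the implied level. It is a group value with no spread of its own, and since the deposited fold changes are shrunken it can understate differences of weakly expressed genes. A pair of levels need not match the difference printed beside it. That difference was rebuilt from the statistics, but its size was scaled with the same shrunken fold changes. The printed differences and their standard errors can therefore be understated too. For Elavl3 the difference was -1.22, while the fold changes behind its levels gave -2.36. Differences are on the log2 scale, SBRT+IL12 minus IL12, with a standard error (SE) derived from the deposited fold changes and statistics. A gene rose or fell only where its Benjamini-Hochberg adjusted p, from a 2-sided normal test, was below 0.05.

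The markers of the sort were checked first. Adgre1, which encodes F4/80, stood at 33174 in SBRT+IL12 and 34112 in IL12 macrophages, and Itgam, which encodes CD11b, at 9103 in SBRT+IL12 and 8171 in IL12 macrophages. Ly6g, absent from the sorted cells by design, stood at 9.08 in SBRT+IL12 and 9.13 in IL12 macrophages, under the minimum for testing. All 10 macrophage markers were tested and none was called, with differences between -0.25 and 0.29. Of the markers of other cells, the endothelial receptor gene Tek was listed at a level of 0, and the only one called was Acta2, a fibroblast gene.

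Ionizing radiation breaks DNA and activates the transcription factor p53, which turns on genes that halt the cell cycle, trigger apoptosis, or support repair and metabolism. Among its direct targets are Cdkn1a, whose p21 protein inhibits cyclin-dependent kinases, and Mdm2, whose protein returns p53 to a low level. Arrest through p21 lowers transcripts for DNA replication and mitosis, which depend on E2F and on the DREAM repressor complex. IL-12 acts mainly on T and natural killer cells, which answer with interferon gamma, and interferon gamma in turn drives antigen presentation and inflammatory genes in macrophages.

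On the IL-12 background, 133 genes rose and 85 fell in irradiated macrophages, 218 of 13848 genes tested (1.57% called, 0.96% higher and 0.614% lower). Among the calls, 46 were higher and 18 lower by at least 1 log2 unit. The median difference over all genes was -0.0026, and 1384 genes had an unadjusted p below 0.05. Of the 5 highest differences 4 belonged to genes of the p53 lists and 1 to the predicted gene Gm10801 (2.48), and the lowest belonged to genes of several functions. The gene lists were chosen with earlier results of these data known, so the place of high genes in them is no independent support. Predicted genes were left out when the 12 highest and 12 lowest genes were named. When the covariance that the shared unIrr controls create between the tables was ignored, a conservative form of the test, 27 genes were called, 24 higher and 3 lower.

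**Figure D1:**
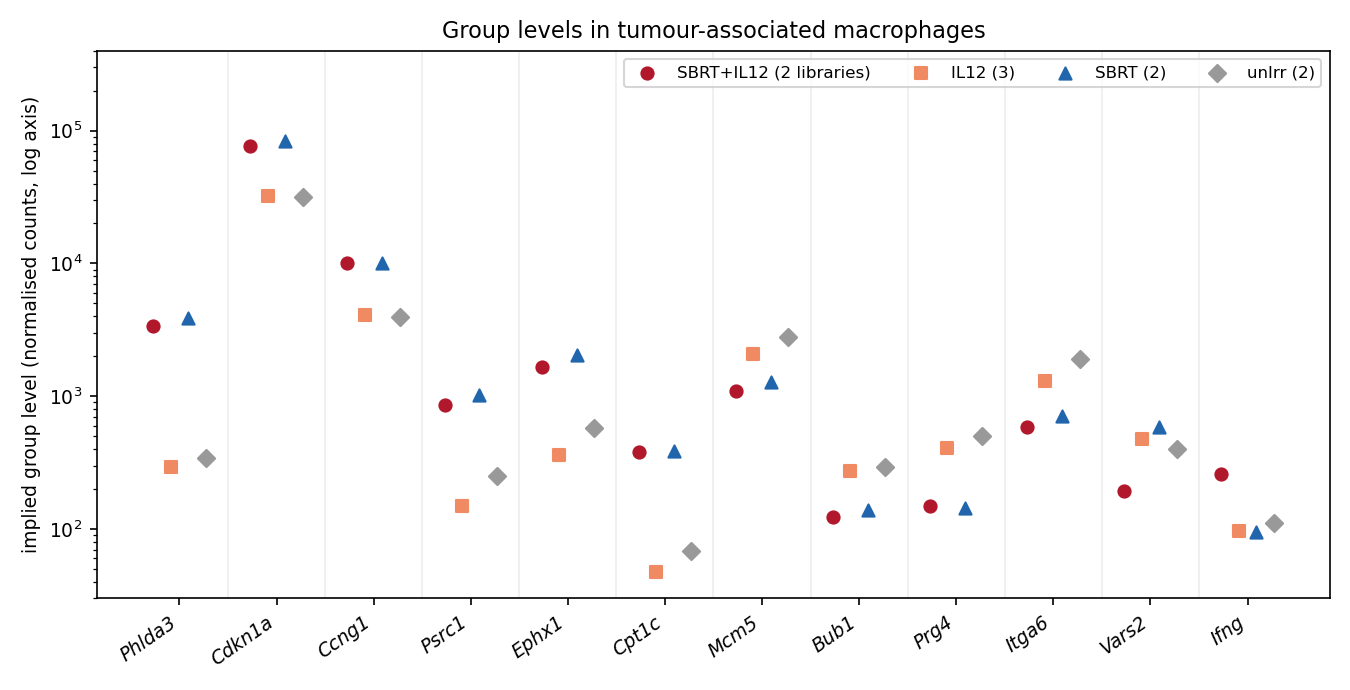
Implied group levels of 12 named genes in the 4 macrophage groups, in normalised counts on a log axis; each point is a group value over the number of libraries in the legend, with no error bar because no library values were used. For Phlda3 the SBRT+IL12 point lies at 3393 and the IL12 point at 291, and for Ifng only the SBRT+IL12 point stands above the other groups.

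Phlda3, whose protein restrains AKT survival signalling and which is a p53 target, had the highest difference. Its implied level was 3393 in SBRT+IL12 and 291 in IL12 macrophages, against 3858 in SBRT and 343 in unIrr macrophages without IL-12. It rose by 3.44 ± 0.171 (SE) log2 units (adjusted p = 1.47e-85 by the normal test), a 10.9-fold difference. Cpt1c, a carnitine palmitoyltransferase, stood at 378 in SBRT+IL12 and 47.7 in IL12 macrophages and rose by 2.78 ± 0.244 (SE). Psrc1, a microtubule-binding protein of the mitotic spindle, stood at 853 in SBRT+IL12 and 149.7 in IL12 macrophages and rose by 2.41 ± 0.232 (SE). Ephx1, the microsomal epoxide hydrolase that detoxifies reactive epoxides, stood at 1662 in SBRT+IL12 and 359 in IL12 macrophages and rose by 2.13 ± 0.218 (SE). In each of these 4 genes both irradiated groups stood above both unirradiated groups.

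The other genes among the 12 highest, with predicted genes left out, were mixed in function. Trp53inp1, a p53-induced protein that promotes p53 activity, stood at 2532 in SBRT+IL12 and 822 in IL12 macrophages and rose by 1.53 ± 0.222 (SE). Its size and call depend on the standard error: it no longer passed when each table kept its own standard error, and was 4.44 with 1 standard error for all tables. Its deposited fold change of IL12 against unIrr (-0.08) and the statistic (0.07) were near 0 and of opposite sign. Their ratio is then no usable standard error, and both alternatives rest on it. Mmp2, a gelatinase that cleaves type IV collagen, stood at 801 in SBRT+IL12 and 257 in IL12 macrophages and rose by 1.58 ± 0.201 (SE). Vldlr, a lipoprotein receptor, rose by 1.51 ± 0.204 (SE), and Arhgap32, a GTPase-activating protein, by 1.62 ± 0.257 (SE). Pvt1, a long noncoding RNA next to Myc, rose by 1.38 ± 0.202 (SE). RP24-286J21.7 rose by 1.65 ± 0.205 (SE) and Grik5, a kainate receptor subunit, by 1.37 ± 0.259 (SE). The mean level of Grik5, 51.4, lay just above the minimum of 50. It stood at 91.6 in SBRT+IL12, 32.7 in IL12, 53.8 in SBRT and 36.7 in unIrr macrophages. Grik5 thus passed the minimum only through groups where it was high, and its call is no support. Grik5 lost its call with the own standard errors and its value became 2.65 with 1 standard error for all tables. Exons of Cpt1c and Pvt1 overlap genes on the other strand and those of Ephx1 overlap another gene on the same strand; the library kit does not mark strand, so their reads cannot be fully told apart.

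Ifng, the gene of interferon gamma, ranked 14 among all genes that rose, 4 predicted genes with higher values included. Its implied level was 259 in SBRT+IL12 and 95.9 in IL12 macrophages, and 94.8 in SBRT and 111 in unIrr macrophages without IL-12, so the SBRT+IL12 group alone was high. It rose by 1.39 ± 0.273 (SE) (adjusted p = 0.000114), while its difference between SBRT and unIrr was -0.30; the call was lost with the covariance left out. It was the 1 call among 13 tested genes of IL-12 and IL-18 signalling, whose median was 0.02. T cells and natural killer cells are the usual source of this transcript, and most of their tested markers had positive differences. Of 10 T cell markers 9 were tested and none was called, with a median of 0.45; their summed implied level was 2157 in SBRT+IL12 and 1593 in IL12 macrophages, and 1583 in SBRT and 2154 in unIrr macrophages without IL-12. Of 10 natural killer cell markers 4 were tested and none was called, with a median of 0.45 and a summed level of 4835 in SBRT+IL12 and 5153 in IL12 macrophages. The part of these cells in the Ifng value was not tested, and in sorted bulk samples fewer cells of a type and less RNA per cell cannot be told apart.

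The lowest difference belonged to Prg4, which encodes the secreted proteoglycan lubricin. It stood at 148 in SBRT+IL12 and 409 in IL12 macrophages, and 144 in SBRT and 500.2 in unIrr macrophages without IL-12, and fell by 1.44 ± 0.228 (SE) (adjusted p = 1.61e-07). Both irradiated groups stood below both unirradiated groups. Itga6, an integrin chain that binds laminin, stood at 581 in SBRT+IL12 and 1294 in IL12 macrophages and fell by 1.14 ± 0.197 (SE); Selp, the adhesion molecule P-selectin, fell by 1.23 ± 0.228 (SE). S1pr1, a receptor for sphingosine-1-phosphate, fell by 1.10 ± 0.257 (SE), Cd226, an activating adhesion receptor, by 1.09 ± 0.228 (SE), and Lrg1, a secreted glycoprotein, by 1.05 ± 0.239 (SE). Elavl3, an RNA-binding protein known from neurons, stood at 68.6 in SBRT+IL12 and 352 in IL12 macrophages and at 57.5 in SBRT and 87.7 in unIrr macrophages without IL-12, so the IL12 group stood apart. It fell by 1.22 ± 0.145 (SE), and its difference was -2.36 with the own standard errors. RP24-231B8.5 fell by 1.16 ± 0.228 (SE). With the covariance left out, 3 of the 12 lowest genes kept their call, Prg4, Vars2 and Elavl3. Markers of other cells that could accompany the macrophages had differences of both signs. Of 10 fibroblast markers 7 were tested and all 7 were negative with a median of -0.23; Acta2 fell by 1.04 ± 0.203 (SE) and the other 6 did not pass. Their summed level was 2089.9 in SBRT+IL12 and 2755 in IL12 macrophages. All 10 acinar markers were negative with a median of -0.22, and all 5 tested epithelial markers were positive with a median of 0.13, none of them passing. The part of these cells in the values of named genes was not tested.

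The p53 targets were described by role. All gene lists were chosen with earlier results of these data known, so their counts and medians are descriptions. Of 15 targets of cell cycle arrest, 13 were tested, 7 rose and none fell, with a median difference of 0.63 beside -0.003 over all genes tested. Cdkn1a, which encodes the kinase inhibitor p21, stood at 76898 in SBRT+IL12 and 32483 in IL12 macrophages, and 83889 in SBRT and 31484 in unIrr macrophages without IL-12, and rose by 1.22 ± 0.143 (SE). Ccng1, which encodes cyclin G1, a partner of the phosphatase PP2A, stood at 10018 in SBRT+IL12 and 4106 in IL12 macrophages and rose by 1.25 ± 0.171 (SE). The 3 feedback regulators Mdm2, Ppm1d and Mdm4 also rose: Mdm2, the ubiquitin ligase of p53, by 0.91 ± 0.193 (SE), Ppm1d, a phosphatase that ends damage signalling, by 0.65 ± 0.162 (SE), and Mdm4, an inhibitor of p53, by 0.62 ± 0.157 (SE). The other 6 tested members, Gtse1, Plk2, Gadd45a, Btg2, Btg1 and Plk3, had differences between 0.16 and 0.63 without passing the test.

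Of 16 targets of apoptosis and survival, 12 were tested, 6 rose and none fell, with a median of 0.75. Bbc3, which encodes the BH3-only killer protein PUMA, stood at 1669 in SBRT+IL12 and 648 in IL12 macrophages and rose by 1.33 ± 0.167 (SE). Bax, the pore-forming effector of the mitochondrial pathway, stood at 7309 in SBRT+IL12 and 3909 in IL12 macrophages and rose by 0.88 ± 0.162 (SE). Aen, a nuclease that acts in apoptosis, rose by 0.97 ± 0.19 (SE), Zmat3, an RNA-binding zinc finger protein, by 1.07 ± 0.188 (SE), and Dcxr, a carbonyl reductase, by 1.33 ± 0.144 (SE). Dcxr was placed in this list but is a metabolic enzyme, so its rise is no result about apoptosis. Pmaip1, which encodes the killer protein NOXA, differed by 0.28 and Fas, the death receptor, by 0.26, neither passing the test. All 12 tested members were positive, down to 0.16 for Apaf1, the apoptosome scaffold.

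Of 18 targets in DNA repair and metabolism, all 18 were tested, 4 rose and 1 fell, with a median of 0.14. Beside Cpt1c and Ephx1 these were Polk, a translesion DNA polymerase, which rose by 0.97 ± 0.206 (SE), and Sesn2, a stress-induced inhibitor of mTORC1, which rose by 0.66 ± 0.163 (SE). Sesn1, its relative, stood at 1650.3 in SBRT+IL12 and 2394 in IL12 macrophages and fell by 0.53 ± 0.14 (SE). Ddb2 and Xpc, which recognise damaged DNA, differed by 0.31 and 0.14, and Rrm2b, a ribonucleotide reductase subunit, by -0.19, none passing. Trp53 itself, the gene of p53, stood at 2193 in SBRT+IL12 and 2498 in IL12 macrophages and differed by -0.18 (adjusted p = 0.869). With the covariance left out, 9 of the 18 called p53 targets kept their call; Ppm1d, Mdm2, Mdm4, Bax, Aen, Zmat3, Sesn1, Sesn2 and Polk lost it.

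**Figure D2:**
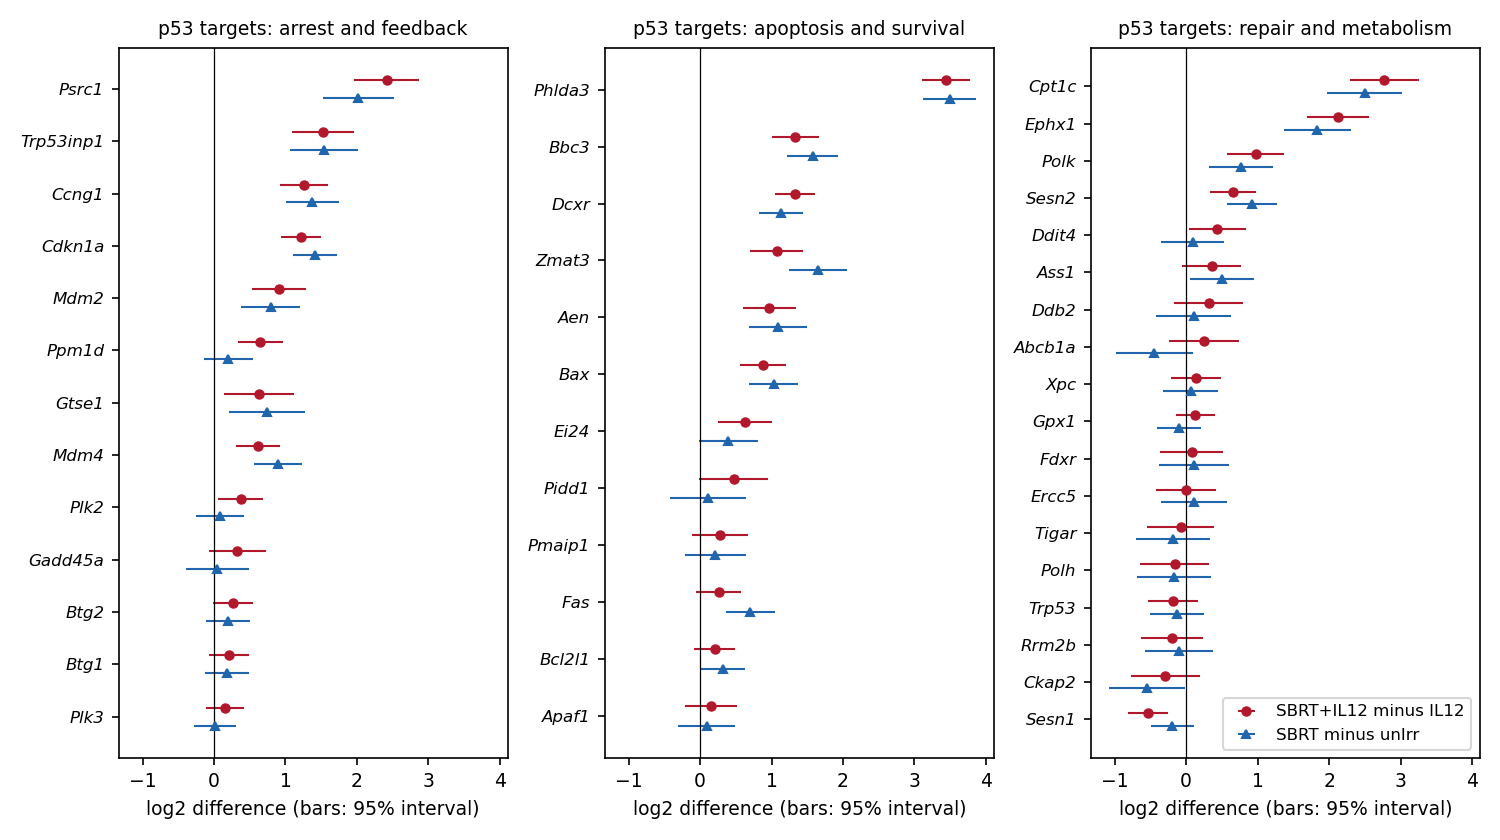
Log2 differences of the tested p53 targets by role, SBRT+IL12 minus IL12 (circles) and SBRT minus unIrr (triangles), with 95% intervals from the derived standard errors. Phlda3 lies at 3.44 with IL-12 and 3.49 without, and Sesn1 at -0.53 with IL-12 is the only called gene left of 0.

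Of 32 genes of G1 and S phase and DNA replication, all were tested, 5 fell and none rose, with a median of -0.49 and 30 negative values. Of the 5, 3 encode subunits of the MCM helicase, which unwinds DNA at replication forks: Mcm5 stood at 1093 in SBRT+IL12 and 2075 in IL12 macrophages and fell by 0.91 ± 0.199 (SE), Mcm6 fell by 0.90 ± 0.201 (SE), and Mcm7 fell by 0.80 ± 0.205 (SE). Uhrf1, which keeps DNA methylation at replication forks, fell by 0.81 ± 0.228 (SE), and Ccne1, which encodes cyclin E1, by 0.62 ± 0.172 (SE). Of 30 mitotic genes, all were tested, 3 fell and none rose, with a median of -0.34. Bub1, a spindle checkpoint kinase, stood at 123 in SBRT+IL12 and 275 in IL12 macrophages and fell by 1.12 ± 0.233 (SE), Tpx2, a spindle assembly factor, by 1.01 ± 0.23 (SE), and Foxm1, a transcription factor of the G2 to M programme, by 1.03 ± 0.238 (SE). Among the 12 lowest genes, Spc24 and Fignl1 also belong to cell division and repair but to neither list: Spc24, a kinetochore subunit, fell by 1.07 ± 0.227 (SE) and Fignl1, an ATPase of homologous recombination, by 1.12 ± 0.218 (SE).

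Other proliferation genes did not pass. Mki67, the usual proliferation marker, differed by -0.18, Top2a by -0.51 and Cdk1 by -0.34. None of 30 genes of DNA damage signalling and repair was called, with a median of -0.28 and 27 negative values, and none of the 20 tested of 26 replication-dependent histones was called, with a median of 0.14. With the covariance left out, all 8 called genes of the G1/S and mitosis lists lost their call. Against an empirical null, a spread estimated from the genes themselves and here wider (1.07), Ccne1 and Uhrf1 lost theirs.

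Promoter sequence was set beside these values because p53 targets and replication genes moved in opposite directions. RefSeq windows of 300 bases (250 before to 50 after the start site, build GRCm38.p6) were at hand for 8452 of the 13848 genes tested. The p53 consensus decamer was found on either strand in 8.22% of the genes tested with a window, in 15 of 72 genes that rose (20.8%) and in 5 of 59 that fell (8.47%). Among 15 called p53 targets with a window it was found in 7, namely Aen, Bax, Ccng1, Cdkn1a, Mdm2, Polk and Ppm1d. A pair of p53 cores (each a C, A or T at both middle positions, then G) set 6 bases apart occurred in 6.22% of genes tested, in 4 of 72 genes that rose (5.56%) and in 4 of 59 that fell (6.78%), and in 3 of those 15, namely Aen, Bbc3 and Cdkn1a. The letters TTNNCGC, an E2F-like motif, occurred on either strand in 37.5% of genes tested, in 23 of 72 that rose (31.9%) and in 29 of 59 that fell (49.2%). CCAAT occurred in 43.2% of genes tested, in 30 of 72 that rose (41.7%) and in 31 of 59 that fell (52.5%). Of the 6 fallen G1/S and mitosis genes with a window, 4 held TTNNCGC and 5 held CCAAT, while 4 and 10 of the 15 called p53 targets held them. The letters TTTGAA, the CHR element of genes bound by DREAM, occurred in 14.3% of genes tested, in 9 of 59 that fell (15.3%) and in 0 of those 6. A match is a string of letters, not evidence of binding.
Phlda3, Cpt1c, Psrc1 and Ephx1, the p53 targets with the highest differences, had windows that held neither p53 motif and are not shown. The windows below show these letters in 3 p53 targets that rose and held a match, and in 2 MCM genes that fell. Each is printed 5′ to 3′ on the gene's strand. Capitals mark p53 decamers and core pairs, which overlap in Cdkn1a and Aen, in the first 3, and TTNNCGC and CCAAT, on either strand, in the last 2; where a gene has several windows, the one with most matches is shown.
Cdkn1a, chr17:29090729-29091028, plus strand: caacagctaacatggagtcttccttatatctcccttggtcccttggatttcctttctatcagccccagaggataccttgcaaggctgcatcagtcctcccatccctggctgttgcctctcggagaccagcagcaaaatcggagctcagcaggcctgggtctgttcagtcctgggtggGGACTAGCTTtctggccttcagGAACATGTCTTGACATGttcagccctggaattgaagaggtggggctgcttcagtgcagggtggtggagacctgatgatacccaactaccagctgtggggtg
Bbc3, chr7:16309333-16309632, plus strand: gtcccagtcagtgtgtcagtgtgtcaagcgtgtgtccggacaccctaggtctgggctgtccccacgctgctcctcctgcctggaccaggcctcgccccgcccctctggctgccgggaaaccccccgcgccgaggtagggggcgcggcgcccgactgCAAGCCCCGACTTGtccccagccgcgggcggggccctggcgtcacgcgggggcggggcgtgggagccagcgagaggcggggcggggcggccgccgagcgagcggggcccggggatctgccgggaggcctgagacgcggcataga
Aen, chr7:78895677-78895976, plus strand: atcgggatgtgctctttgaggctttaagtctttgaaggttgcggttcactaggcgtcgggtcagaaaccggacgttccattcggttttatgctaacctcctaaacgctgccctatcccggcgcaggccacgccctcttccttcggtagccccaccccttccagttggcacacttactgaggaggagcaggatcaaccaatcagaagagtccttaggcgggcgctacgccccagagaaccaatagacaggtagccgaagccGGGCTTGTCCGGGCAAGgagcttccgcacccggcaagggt
Mcm5, chr8:75109259-75109558, plus strand: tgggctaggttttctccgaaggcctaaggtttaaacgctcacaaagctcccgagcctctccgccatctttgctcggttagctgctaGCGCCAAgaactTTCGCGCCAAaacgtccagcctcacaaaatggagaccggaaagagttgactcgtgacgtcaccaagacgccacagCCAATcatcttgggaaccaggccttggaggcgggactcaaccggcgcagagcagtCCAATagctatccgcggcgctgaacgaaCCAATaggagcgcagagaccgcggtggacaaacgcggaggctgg
Mcm6, chr1:128359656-128359955, minus strand: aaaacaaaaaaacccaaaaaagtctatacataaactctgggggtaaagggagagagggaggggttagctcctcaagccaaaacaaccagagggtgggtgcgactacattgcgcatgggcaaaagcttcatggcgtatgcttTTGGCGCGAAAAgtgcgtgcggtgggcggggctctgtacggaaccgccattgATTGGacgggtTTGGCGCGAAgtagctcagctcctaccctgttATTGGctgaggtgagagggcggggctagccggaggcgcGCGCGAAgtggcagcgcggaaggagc

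Radiation without IL-12 offered an independent set of libraries, since SBRT and unIrr macrophages share none with SBRT+IL12 and IL12 macrophages. In the authors' deposited table of SBRT against unIrr, 348 of the 13848 genes had an adjusted p below 0.05 (2.51%), 159 higher (1.15%) and 189 lower (1.36%). Of these, 317 (91.1%) had the same sign on the IL-12 background, 150 of the 159 higher and 167 of the 189 lower, beside 62.3% of all genes tested. Across the 348 genes, which are not independent replicates, Pearson's r between the 2 differences was 0.82 and Spearman's rho 0.80, against 0.45 and 0.36 over all genes. Both comparisons called 86 genes, 63 higher and 23 lower, which is 39.4% of the calls with IL-12 and 24.7% of those without.

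Of the p53 lists, 17 genes rose and 1 fell with IL-12, and the authors' deposited table called 17 higher and none lower without it. Cdkn1a differed by 1.22 with IL-12 and 1.41 without, Ccng1 by 1.25 and 1.38, and Bbc3 by 1.33 and 1.58. For the cell division lists the medians were nearer to 0 with IL-12: -0.49 with and -0.72 without for G1/S, and -0.34 and -0.87 for mitosis. IL12 against unIrr had medians of -0.32 for G1/S and -0.36 for mitosis with no member called, and SBRT+IL12 against unIrr had -0.79 and -0.74. The summed implied G1/S level was 35195 in SBRT+IL12 and 36075 in SBRT, beside 44695 in IL12 and 50388 in unIrr macrophages. By this sum the irradiated groups were close, and of the unirradiated groups IL12 was lower. Whether this accounts for the medians nearer to 0 was not tested. The authors' deposited table called 14 G1/S and 16 mitotic genes lower without IL-12, beside 5 and 3 with it. No member of the p53, G1/S or mitosis lists passed the test of the difference between both radiation effects.

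**Figure D3:**
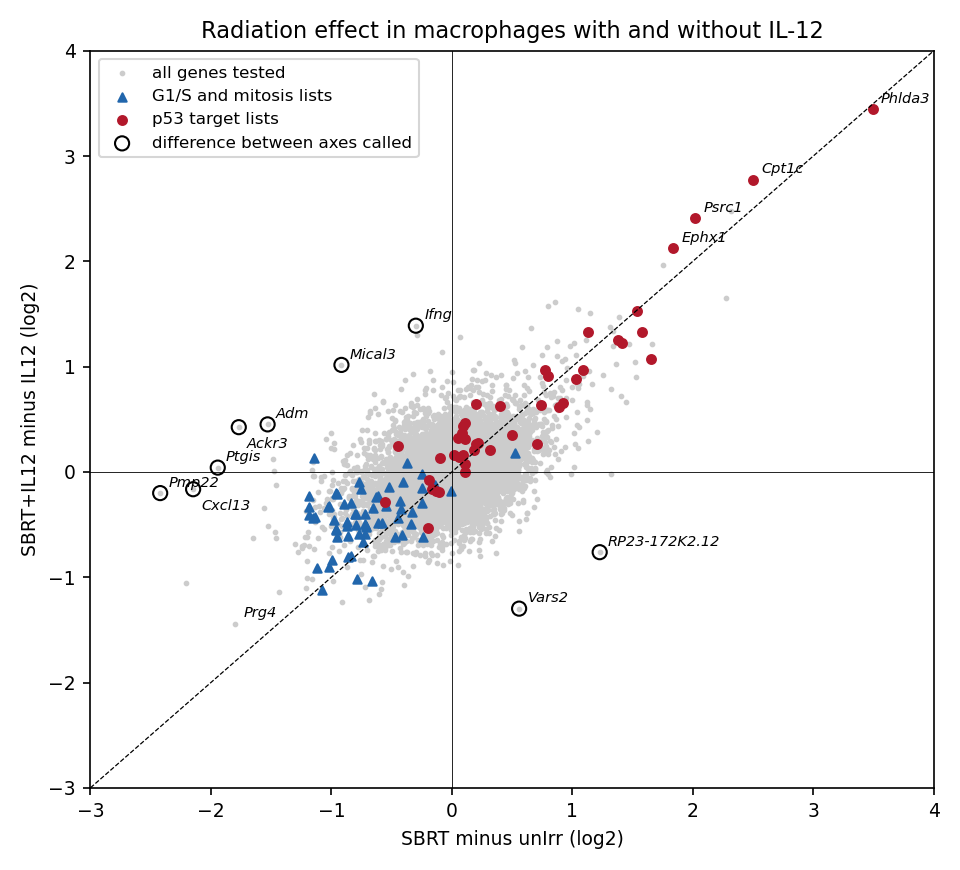
Log2 difference SBRT+IL12 minus IL12 (vertical) against SBRT minus unIrr (horizontal) for the 13848 genes tested; the dashed line marks equal values, and open circles the 9 genes whose 2 values differed. Red p53 targets reach 3.44 and 3.49 for Phlda3 at the upper right, while Ifng lies above the line at 1.39 and -0.30.

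The difference between the radiation effects with and without IL-12 passed the test for 9 genes (0.065%), 7 higher (0.0505%) and 2 lower (0.0144%), and 640 had an unadjusted p below 0.05. Pmp22, a membrane protein first known from myelin, stood at 602 in SBRT+IL12 and 699.9 in IL12 macrophages and at 262 in SBRT and 1337 in unIrr macrophages without IL-12, so SBRT was low and unIrr high. Its radiation effect was -0.20 with IL-12 and -2.42 without, a difference of 2.22 ± 0.334 (SE) (adjusted p = 3.93e-07). Adm, which encodes the vasodilator adrenomedullin, stood at 504 in SBRT+IL12 and 367 in IL12 macrophages and 265 in SBRT and 737 in unIrr macrophages without IL-12, a difference of 1.98 ± 0.343 (SE). Ackr3, an atypical receptor that scavenges CXCL12, differed by 2.19 ± 0.407 (SE), Cxcl13, the B cell chemokine, by 1.98 ± 0.417 (SE), and Ptgis, prostacyclin synthase, by 1.98 ± 0.43 (SE). In the authors' deposited table all 5 were lower after SBRT without IL-12, and on the IL-12 background none of the 5 was called. The deposited log2 fold changes of IL12 against unIrr were negative too: -0.93 for Pmp22, -1.01 for Adm, -0.63 for Ackr3, -1.14 for Cxcl13 and -0.81 for Ptgis. Pmp22, Adm and Cxcl13 had a deposited adjusted p below 0.05 there. Those of SBRT+IL12 against unIrr were also negative for all 5, so unIrr stood highest in each. Mical3, a monooxygenase that acts on the cytoskeleton, rose with IL-12 by 1.02 ± 0.27 (SE) and differed by 1.93 ± 0.401 (SE). Ifng differed by 1.69 ± 0.405 (SE) (adjusted p = 0.0471).

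The 2 genes with a lower radiation effect with IL-12 were Vars2, the mitochondrial valyl-tRNA synthetase, and RP23-172K2.12. Vars2 stood at 192 in SBRT+IL12 and 473 in IL12 macrophages and 586 in SBRT and 398 in unIrr macrophages without IL-12; it fell by 1.30 ± 0.197 (SE) with IL-12, had 0.56 without, and differed by -1.86 ± 0.292 (SE) (adjusted p = 1.46e-06). RP23-172K2.12 stood at 257 in SBRT+IL12 and 444 in IL12 macrophages and 550.3 in SBRT and 235 in unIrr macrophages without IL-12 and differed by -1.99 ± 0.351 (SE). Exons of Vars2, Mical3 and Ptgis overlap genes on the other strand. Ifng lost this call with the covariance left out, with 1 standard error for all tables and with no filter on level, and with the covariance left out 5 genes remained: Ackr3, Adm, Pmp22, RP23-172K2.12 and Vars2. Several marker lists had medians above 0 for the same difference, none of their members passing: 0.92 for 4 natural killer cell, 0.84 for 9 T cell, 0.83 for 5 epithelial and 0.39 for 3 B cell markers, and 0.43 for the 13 mitochondrially encoded genes. Over all genes tested the median was -0.0014. The part of these cells and transcripts in the 9 values was not tested.

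In SBRT+IL12 against IL12 macrophages, 2 of 116 tested genes of 6 immune lists were called (1.72%), near the 1.57% of all genes tested. The lists hold the interferon gamma and type I responses, MHC class I and II presentation, inflammatory genes and alternative activation. Of 25 interferon gamma response genes, all tested, 1 rose: Ido1, which breaks down tryptophan, stood at 173 in SBRT+IL12 and 69.8 in IL12 macrophages and rose by 1.19 ± 0.247 (SE), though 1 standard error for all tables gave 1.93. The list's median was 0.02. Of these genes, 13 were higher in IL12 against unIrr macrophages in the authors' deposited table (0.867% of all genes tested), which shares the IL12 libraries with this comparison. Gbp2b, an interferon-induced GTPase, stood at 33325 in SBRT+IL12 and 33014 in IL12 macrophages, and 25315 in SBRT and 15709 in unIrr macrophages without IL-12, so that both IL-12 groups were high. Nos2, the inducible nitric oxide synthase, differed by 0.60 (adjusted p = 0.144) and Cd274, which encodes PD-L1, by 0.29.

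Of 25 genes of the type I interferon response and nucleic acid sensing, none was called, with a median of 0.01 with IL-12 and 0.47 without, and none passed the test of that difference. Mx1, an antiviral GTPase, stood at 3359 in SBRT+IL12 and 2608 in IL12 macrophages and 2866 in SBRT and 1422 in unIrr macrophages without IL-12, so that unIrr alone was low. None of 15 genes of MHC class I presentation and none of 13 of class II was called, with medians of 0.02 and -0.09. None of 19 tested inflammatory genes was called (median -0.03). Of 21 tested genes of alternative activation 1 rose, Arg1, which encodes arginase 1: it stood at 62713 in SBRT+IL12 and 42715 in IL12 macrophages and rose by 0.54 ± 0.16 (SE) (adjusted p = 0.0487). Mgl2, a lectin of such macrophages, stood at 885 in SBRT+IL12 and 1359 in IL12 macrophages and differed by -0.74 without passing (adjusted p = 0.0976). With the covariance left out, Ido1 and Arg1, the only calls of the immune lists, lost their call.

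Single members rose in 4 other lists, beside 0.96% of all genes tested. A single call was not read as a result about its list. Gas6, a bridge between apoptotic cells and the receptors MERTK and AXL, stood at 2859.9 in SBRT+IL12 and 1463 in IL12 macrophages and rose by 0.92 ± 0.23 (SE), 1 of 20 complement and phagocytic genes. Abca1, a cholesterol exporter, stood at 18644 in SBRT+IL12 and 12739 in IL12 macrophages and rose by 0.54 ± 0.148 (SE), 1 of 20 genes of lipid handling and lysosome. Tnfsf4, which encodes the costimulatory OX40 ligand, rose by 0.37 ± 0.106 (SE), 1 of 14 tested ligands; 1 standard error for all tables gave 0.68. Mmp2 was 1 of 16 tested matrix genes. With the covariance left out Mmp2 kept its call, and Gas6, Abca1 and Tnfsf4 lost theirs. Cx3cr1, the fractalkine receptor, stood at 4226 in SBRT+IL12 and 7130.5 in IL12 macrophages and differed by -0.73 (adjusted p = 0.058); none of 16 chemokines and receptors passed. None of 23 tested glycolysis and hypoxia genes and none of 14 antioxidant and iron genes was called, with medians of -0.01 and 0.06. Exons of Gas6 and Cx3cr1 overlap genes on the other strand. Of the genes described before, exons of Prg4, Selp, Cdkn1a and Mcm7 also overlap genes on the other strand, and those of Ifng, Elavl3, Bax, Mcm7 and Foxm1 genes on the same strand, so that part of their reads may belong to a neighbour.

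**Figure D4:**
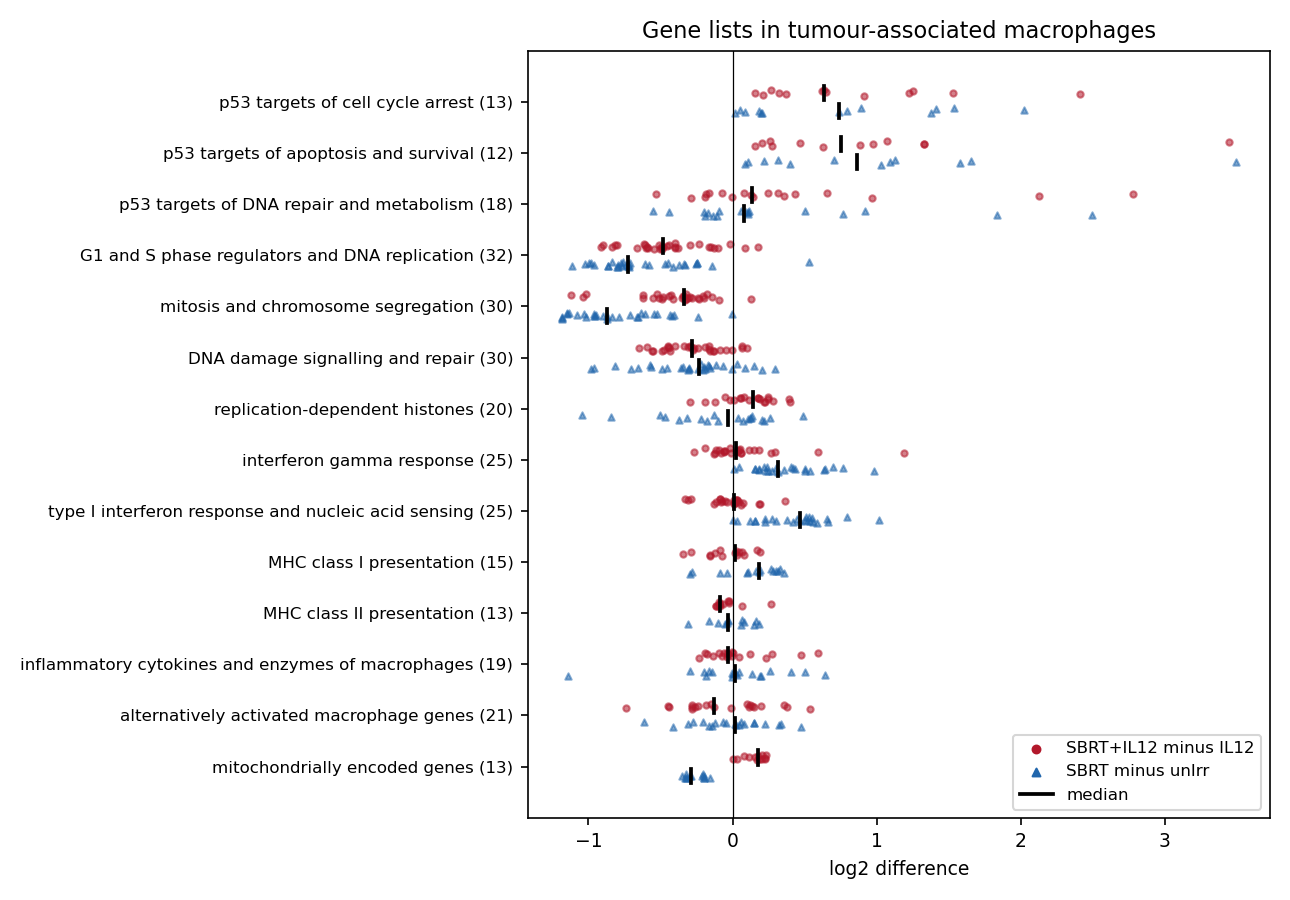
Log2 differences of the tested members of 14 lists (number tested in brackets), SBRT+IL12 minus IL12 (circles) and SBRT minus unIrr (triangles), with black bars at the medians. Interferon lists centre on 0.02 and 0.01 with IL-12, and the G1/S list on -0.49.

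The same contrast was set beside inflammatory monocytes (IM) and CD8 T cells, each with 3 SBRT+IL12 and 3 IL12 libraries from the same tumour model. It called 22 of 13484 genes in IM (0.163%) and 65 of 14094 in CD8 T cells (0.461%). The radiation effect in TAM minus that in IM passed the test for 44 of 13111 genes (0.336%), 32 higher in TAM (0.244%) and 12 lower (0.0915%). TAM minus CD8 T cells passed for 128 of 12438 genes (1.03%), 46 higher (0.37%) and 82 lower (0.659%). Of 42 p53 targets tested in both populations, 13 were above IM and 10 above CD8 T cells, and none was below either.

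Phlda3 differed by 3.44 in TAM, 0.55 in IM and 0.33 in CD8 T cells. Its value in TAM exceeded that in IM by 2.89 (adjusted p = 6.81e-21) and that in CD8 T cells by 3.11. Cdkn1a differed by 1.22 in TAM, 0.09 in IM and 0.53 in CD8 T cells, and TAM minus CD8 did not pass (adjusted p = 0.0792). Bax differed by 0.88 in TAM, -0.01 in IM and 0.04 in CD8 T cells. Of the G1/S and mitosis lists 4 of 61 genes were below IM and 16 of 62 below CD8 T cells, where the G1/S median was 0.28. Uhrf1 differed by -0.81 in TAM, 0.43 in IM and 0.52 in CD8 T cells. With the covariance left out, 2 genes passed against IM, Ephx1 and Phlda3, and 4 against CD8 T cells, Ephx1, Phlda3, Pvt1 and RP23-108F2.8.

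**Figure D5:**
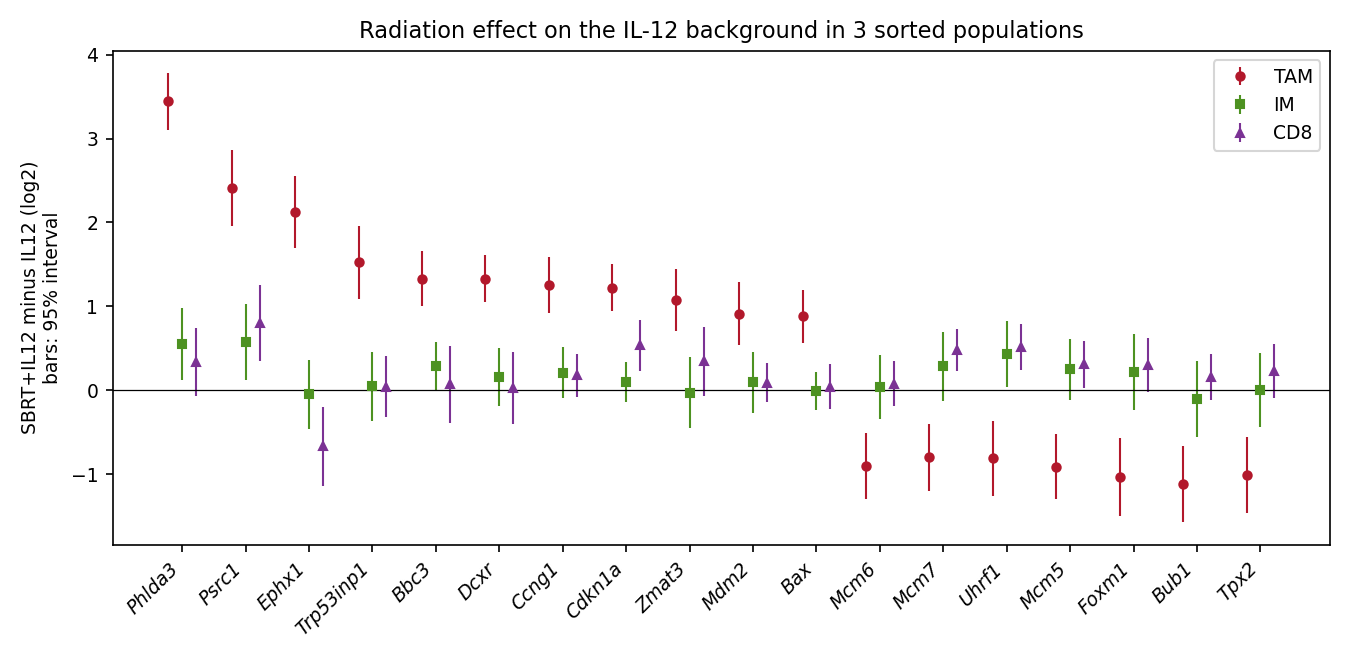
Log2 difference SBRT+IL12 minus IL12 with 95% intervals in TAM (circles), IM (squares) and CD8 T cells (triangles) for 11 p53 targets and 7 cell division genes. Bax lies at 0.88 in TAM and -0.01 in IM, and Mcm5 at -0.91 in TAM and 0.25 in IM.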

How the data were processed

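RNA-seq libraries of sorted cells were made with a TruSeq V2 kit and sequenced on an Illumina HiSeq instrument, per the labels' protocols. The submitters' processing notes name GRCm38 as the build and list the tools Salmon, featureCounts, Subread, STAR 2.6.0c, Trimmomatic 0.36 and FastQC 0.11.8; their roles and the annotation release are not given in the sources used here. The authors deposited 9 tables, 3 for each of TAM, IM and CD8, with the columns of DESeq2 results per the file headers. The mean level (base mean in the file headers) is a signal deposited by the authors, normalised and averaged over libraries, and is identical in the 3 tables of a population. The log2 fold changes deposited by the authors are treated over unIrr and shrunken. The authors deposited the Wald statistic as a score for each gene, and the p-value and adjusted p-value deposited by the authors belong to it. Counts per library were not analysed here, so sequencing depth is unknown and intervals cover only the error that the deposited statistics carry.

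The standard error of a table was taken as fold change over statistic, and the variance of 1 library as the median over the 3 tables of its square, scaled by library numbers. In some genes with a statistic near 0, such as Trp53inp1, fold change and statistic had opposite signs, and the ratio is unreliable there. Each effect was the statistic times the standard error so shared. The radiation effect on the IL-12 background was the SBRT+IL12 effect minus the IL12 effect, with the variance of the 2 SBRT+IL12 and 3 IL12 libraries only, since the unIrr controls cancel. The same variance served for the difference between radiation effects with and without IL-12, and differences between populations summed the variances of separate libraries. Tests were normal and 2-sided, adjusted by Benjamini-Hochberg across the genes with a p in the 3 tables and a level of at least 50. The original plan took the mean of the 3 variances, which is unstable where a statistic is near 0, and kept 8 genes with no deposited p; both forms are given as alternatives chosen after seeing the data. The procedure was tested on simulated data.

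Members, gene lists (21, and 14 of markers) and tests were chosen with earlier results of these data known. Named genes were the 12 highest and 12 lowest calls without predicted genes, pseudogenes and receptor segments, up to 4 members per list with the smallest p, all p53 targets, up to 8 genes of the difference with and without IL-12, up to 5 each way against IM, and the sort markers; Mki67, Top2a, Cdk1 and Gbp2b, and the genes said so in the closing section, were chosen after their values were seen. Exon overlaps came from GENCODE and promoters from RefSeq. Alternatives were the covariance left out, own or unscaled standard errors, an empirical null, centring, and level minimums of 10, 200 or none. Python 3.11.15, numpy 2.4.6, pandas 2.3.3, scipy 1.17.1 and matplotlib 3.10.9 were used.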

Additional observations from a re-analysis of the deposited data

Results flagged for a closer look

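These genes stood out because a test found their radiation effect to differ between 2 settings. With IL-12 minus without IL-12 in macrophages, the differences were 2.22 for Pmp22, 2.19 for Ackr3, 1.98 for Ptgis, 1.98 for Cxcl13, 1.98 for Adm, 1.93 for Mical3 and 1.69 for Ifng. They were -1.86 for Vars2 and -1.99 for RP23-172K2.12. On the IL-12 background, TAM minus IM differed by 2.89 for Phlda3, 2.17 for Ephx1, 1.84 for Psrc1, 1.69 for Arhgap32 and 1.69 for Pvt1. It differed by -1.83 for RP23-172K2.12, -1.40 for Vars2, -1.26 for Foxm1, -1.24 for Uhrf1 and -1.23 for Pcbp4, an RNA-binding protein. Pcbp4 itself did not pass in TAM (-0.69, adjusted p = 0.186) and its exons overlap Gpr62 on the other strand. Groups of 2 or 3 libraries with no library values allow no search for single outlying libraries.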

How the results depend on the processing

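No named gene that was called changed sign under the alternatives run. With the covariance of the shared controls left out, the calls were 27 for SBRT+IL12 against IL12, 5 for the difference with and without IL-12, 2 for TAM minus IM and 4 for TAM minus CD8; the test is then conservative by construction, and 21 of the 71 named called genes kept their call. An empirical null gave 65 for the difference with and without IL-12 and 38 for TAM minus CD8. It scales each value by the spread over all genes, which was narrower than the normal test takes in the first and wider in the second. The scaling thus added calls in the first and removed calls in the second. It cannot tell a wrong standard error from true differences in many genes, and why the spreads differ was not tested. A level of at least 200 gave 4 for the difference with and without IL-12 and 29 for TAM minus IM, with fewer genes tested, and no filter gave 68 for TAM minus IM. The other counts for SBRT+IL12 against IL12 ranged from 148 to 257. Own standard errors kept 62 of the 71 calls, and 1 unscaled standard error kept 65. The share of genes with the same sign with and without IL-12 ranged from 90.7% to 92.3%. The mean of the variances gave 218 calls and keeping genes with no deposited p gave 223, both chosen after seeing the data. No paired analysis was possible because the tables hold no value per library, and for the same reason no library could be left out; whether 1 library sets a value was not tested. With 2 libraries in 3 of the 4 macrophage groups, the standard errors rest largely on the spread that the authors' fit shared between genes.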

Other observations

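The genes here were chosen after their values were seen, so their calls support nothing beyond themselves. Of 11 predicted genes (Gm10717 to Gm10722, Gm10800, Gm10801, Gm10837, Gm11168 and Gm21738), 7 rose, with a median of 0.98 and a summed implied level of 6266 in SBRT+IL12 and 2265 in IL12 macrophages, and 5918 in SBRT and 2585 in unIrr macrophages without IL-12. Gm10801 stood at 533 in SBRT+IL12 and 76.2 in IL12 macrophages and rose by 2.48 ± 0.234 (SE). With 1 standard error for all tables its difference was 9.44, which rests on a statistic of -0.23 for IL12 against unIrr, where the ratio is unstable. Gm10722 stood at 357 in SBRT+IL12 and 85.3 in IL12 macrophages and rose by 1.97 ± 0.245 (SE), and Gm10800 by 1.47 ± 0.167 (SE). Members of this group may share reads with near-identical copies, so the split among them is uncertain.

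Myc, the growth-promoting transcription factor beside Pvt1, stood at 677 in SBRT+IL12 and 1287 in IL12 macrophages and fell by 0.91 ± 0.218 (SE), while Pvt1 rose. Trp53cor1, the long noncoding RNA beside Cdkn1a, rose by 1.05 ± 0.238 (SE), and its exons overlap genes on the other strand. With 1 standard error for all tables its difference was 3.17, but its fold change (-0.06) and statistic (0.05) for IL12 against unIrr had opposite signs. Gdf15, a stress cytokine, stood at 13736 in SBRT+IL12 and 7513 in IL12 macrophages and rose by 0.83 ± 0.214 (SE). Mgmt, which removes alkyl groups from guanine, rose by 0.84 ± 0.228 (SE), and Nr1d1, a clock repressor whose exons overlap Thra, rose by 1.23 ± 0.185 (SE). Dhcr7 and Sc5d, enzymes of late cholesterol synthesis, fell by 0.74 ± 0.213 (SE) and 0.68 ± 0.18 (SE), and Fasn, fatty acid synthase, by 0.69 ± 0.186 (SE). Hspa5, the chaperone BiP, stood at 42891 in SBRT+IL12 and 62905 in IL12 macrophages and fell by 0.54 ± 0.15 (SE), Sdf2l1, its partner, by 0.57 ± 0.165 (SE), and Cad, which starts pyrimidine synthesis, by 0.89 ± 0.211 (SE).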
